A study of Homo sapiens with 24 samples.

Results

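The mitochondrial genome genes were taken as every gene whose chromosome column read MT. There were 37 of them among the 57820 genes of the deposited tables. They comprised 13 genes for subunits of the respiratory chain and ATP synthase, 2 for ribosomal RNAs and 22 for transfer RNAs. On GRCh37 the mitochondrial chromosome is 16569 bases long, and 28 of the genes lie on its plus strand and 9 on its minus strand.

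The study asked how loss of ID3, an inhibitor of basic helix-loop-helix transcription factors, alters the response to inhibition of class I histone deacetylases. RNA-seq was made from U2OS, a human osteosarcoma cell line, in 24 libraries, with 3 replicates in each of 8 groups. A first set used AID-DIvA cells, a U2OS derivative that carries the restriction enzyme AsiSI fused to an auxin-inducible degron. It held WT and ID3-KO cells, each either untreated or given the class I inhibitor mocetinostat for 24 h followed by 24 h of recovery. The second set used U2OS WT and ID3-KO cells, either untreated or given mocetinostat. Their collection after 24 h of mocetinostat, without recovery, was inferred from the titles and the study's methods. The set and the time of collection went together, so cell line and recovery cannot be told apart. For the AID-DIvA libraries the titles and the treatment entry of the labels contradicted each other, and the titles were followed. The labels do not state whether each KO line is a single clone, nor the dose. Because whole cultures were lysed, fewer mitochondria per cell and less RNA per mitochondrion cannot be told apart.

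Libraries held 37878751 to 76906266 counts, of which 5.59% to 9.47% fell on the mitochondrial genes. ID3 was measured at 46.8 to 126 CPM (counts scaled to library totals with TMM factors, computed within each set) in the 12 WT libraries and at 30.3 to 63.9 CPM in the 12 KO libraries. In untreated cells its log2 difference between KO and WT was −0.56 in AID-DIvA (adjusted p = 8.4e-06) and −1.03 in U2OS (adjusted p = 0.0065). Among osteoblast lineage markers COL1A1 (799 to 2643 CPM) and SPARC (845 to 1621 CPM) were abundant, whereas SP7 did not exceed 0.106 CPM. PTPRC, CD3E, HBA1 and HBB, markers of blood cells, did not exceed 0.422 CPM in any library. Of the epithelial markers EPCAM stood at 4.32 to 10.8 CPM and was called higher with mocetinostat in all 4 populations, and its part in the results was not tested. All replicate pairs differed by more than sampling noise. Replicate 1 of untreated U2OS WT stood apart, with a chi-square per gene of 92.4 and 82.0 against replicates 2 and 3, which differed from each other by 4.06. Replicate 1 of recovered AID-DIvA KO also stood apart (18.1 and 24.1, against 4.21 between the other replicates). The same held for replicate 1 of recovered AID-DIvA WT (12.2 and 15.4, against 2.62).

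Human mitochondrial DNA is read from both of its strands into long precursors that span many genes. The tRNAs sit between most of the mRNAs and rRNAs, and their excision releases the mature transcripts. RNA copied from the minus-strand direction carries MT-ND6 and several tRNAs. Much of its remainder, which is complementary to the plus-strand genes, is normally degraded within the organelle. The libraries were strand-specific, and counts on the sense strand of a gene were kept apart from counts on its antisense strand.

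The compactness of the genome is visible in its sequence. Of 36 neighbouring gene pairs 20 abutted without a gap and 5 overlapped. The sequences below show such a junction, such overlaps and the tRNA genes MT-TV and MT-TP. They are from GRCh37, written 5′ to 3′. In the first, chrMT:14119-14178 on the plus strand, capitals mark the last 3 bases of MT-ND5 and the 3 bases whose complement ends MT-ND6, which is read from the other strand. In the second, chrMT:8507-8592, and the third, chrMT:10740-10786, capitals mark the bases that 2 mRNA genes share (46 for MT-ATP8 and MT-ATP6, and 7 for MT-ND4L and MT-ND4). MT-TV (chrMT:1602-1670, plus strand) is the tRNA gene that separates the rRNA genes. MT-TP (chrMT:15956-16023, written on its minus strand) gave the most counts of all tRNA genes when both strands were counted.
MT-ND5/MT-ND6 junction: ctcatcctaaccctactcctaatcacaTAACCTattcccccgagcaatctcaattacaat
MT-ATP8/MT-ATP6 overlap: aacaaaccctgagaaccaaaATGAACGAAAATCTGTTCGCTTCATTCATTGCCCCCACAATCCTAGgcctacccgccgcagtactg
MT-ND4L/MT-ND4 overlap: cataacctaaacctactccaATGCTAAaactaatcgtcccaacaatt
MT-TV: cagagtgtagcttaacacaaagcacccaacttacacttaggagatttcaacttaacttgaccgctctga
MT-TP: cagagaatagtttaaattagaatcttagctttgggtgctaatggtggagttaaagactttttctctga

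Transcripts of complex IV led the mitochondrial counts. Over all libraries MT-CO1, the catalytic subunit of cytochrome c oxidase, took 18.1% of mitochondrial counts, MT-CO3 13.2% and MT-CO2 12.5%. MT-ND4 of complex I also took 12.5%, and the large rRNA MT-RNR2 took 10.4%. MT-ATP6, MT-CYB, MT-ND2, MT-ND1 and MT-ND5 followed with 7.49%, 5.73%, 5.18%, 4.30% and 4.07%. MT-ND4L (1.70%), MT-ATP8 (1.57%), MT-RNR1 (1.17%), MT-ND3 (0.962%) and MT-ND6 (0.872%) took the least among mRNAs and rRNAs. No tRNA gene took more than 0.0799%. These shares count fragments and so grow with gene length.

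Per kilobase of gene, sense counts ranked the mRNAs in nearly the same order in every group. MT-CO2 and MT-CO3 held ranks 1 and 2 in all 8 groups, MT-CO1 rank 3, MT-ATP6 rank 4 and MT-ND4 rank 5. In untreated AID-DIvA WT cells MT-CO2 stood at 13442 ± 1292 sense CPM per kilobase (SD, n = 3) and MT-CO3 at 11805, a gap within their spread. MT-CO1 stood at 9283, MT-ATP6 at 7903 and MT-ND4 at 5929. Fragments shared by overlapping genes were left unassigned, and some from MT-ATP6 may have been assigned to a nuclear copy. The rank of MT-ATP6 against MT-CO1 is therefore uncertain. At the low end MT-ND5 (786 ± 193) and MT-ND6 (714 ± 127) did not differ beyond their spread. The ratio of the highest to the lowest mRNA ran from 16 in mocetinostat-treated U2OS WT to 29.7 in untreated AID-DIvA KO. The library kit was one for total RNA that normally includes removal of rRNA. Whether it was done, and whether it covers mitochondrial rRNA, is not given in the sources used here, so the rRNA genes are not ranked against the mRNAs.

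The mitochondrial share of all counts was raised after mocetinostat and recovery in AID-DIvA cells. In untreated AID-DIvA it was 7.17% ± 0.75 in WT and 7.96% ± 1.16 in KO (SD, n = 3 each). After recovery it was 8.37% ± 0.52 in WT and 9.30% ± 0.25 in KO. The difference, averaged over genotypes, was 1.27 percentage points (two-sided exact permutation test within genotype, adjusted p = 0.036 over 16 share comparisons). The smallest p this test can give is 0.005. The call was lost without any 1 of 7 of the 12 libraries (any recovered WT library, untreated WT replicate 2 or 3, or recovered KO replicate 1 or 2), and the difference ran from 1.04 to 1.59 points over all omissions. Over mRNA genes alone the difference was 1.01 points and did not pass (adjusted p = 0.080). In U2OS the corresponding means were 5.81% ± 0.21 and 6.18% ± 0.32 untreated and 6.07% ± 0.40 and 6.65% ± 0.33 with mocetinostat, and the difference of 0.36 points did not pass (adjusted p = 0.080). The differences between KO and WT, 0.86 points in AID-DIvA and 0.47 points in U2OS, did not pass either (adjusted p = 0.067 and 0.064).

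Within the mitochondrial counts, the rRNA share was higher with mocetinostat in both sets. In U2OS WT it ran from 9.65% to 10.5% untreated and from 12.8% to 13.5% treated, and in U2OS KO from 10.4% to 11.3% and from 13.6% to 14.4%. Neither pair of groups overlapped. The averaged difference was 2.93 percentage points (exact permutation, adjusted p = 0.016). AID-DIvA cells after recovery showed a difference of 1.21 points (adjusted p = 0.016), from 10.1% to 10.5% untreated against 10.6% to 12.01% recovered in WT, and from 9.73% to 11.8% against 12.2% to 12.99% in KO. The KO share exceeded the WT share by 0.84 points in U2OS (adjusted p = 0.036), a call lost without untreated WT replicate 2 or 3, untreated KO replicate 1 or treated KO replicate 2 (0.718 to 0.851). The AID-DIvA treatment call was lost without recovered KO replicate 3, at 1.10 points. In AID-DIvA the KO and WT difference of 0.99 points did not pass (adjusted p = 0.067). How much rRNA may have been removed from each library was not measured, and its part in these differences was not tested.

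**Figure D1:**
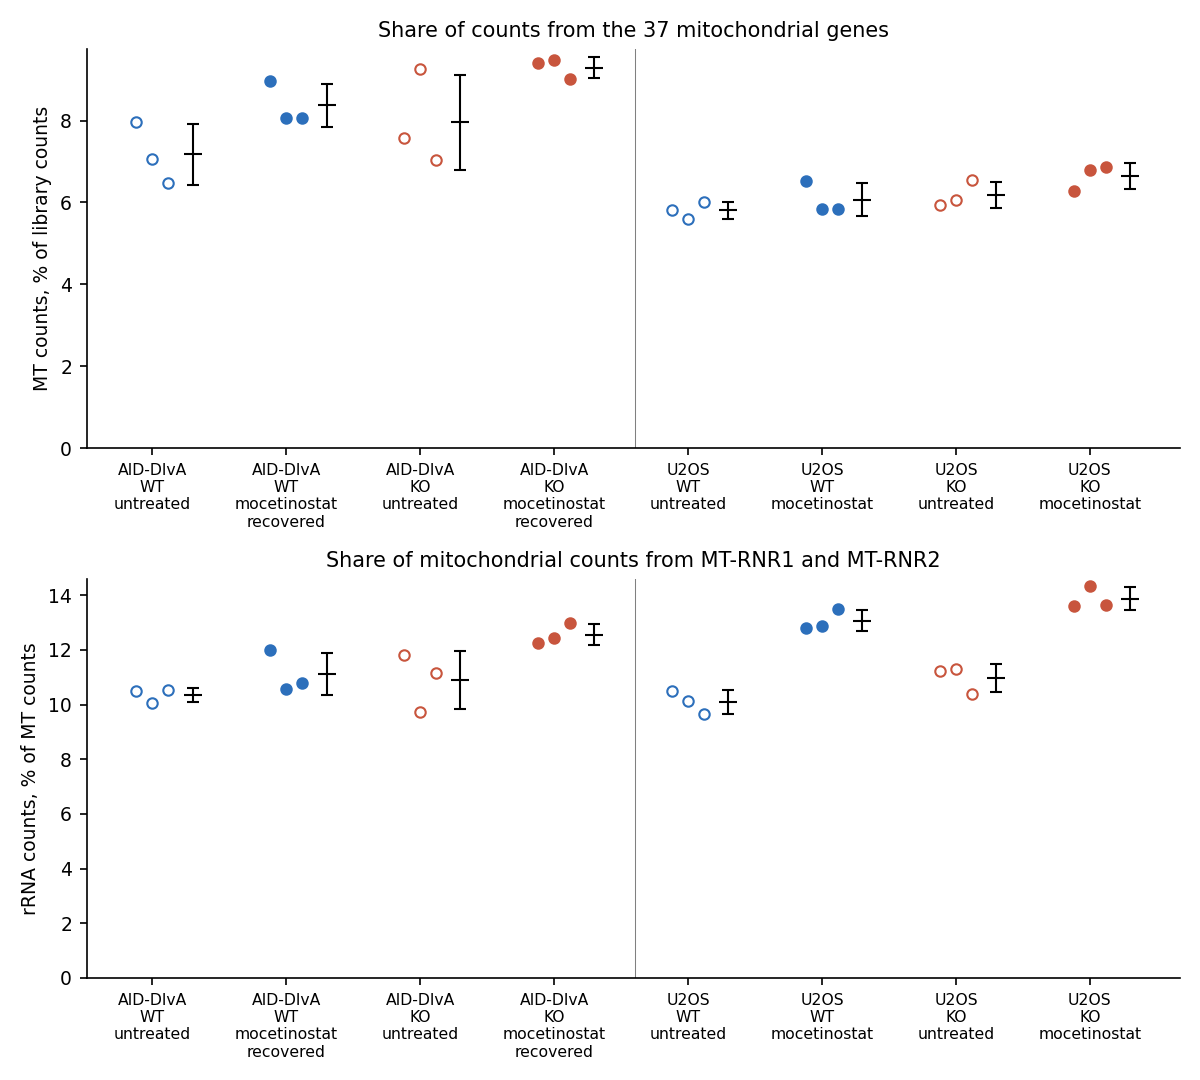
Mitochondrial counts as percent of all counts (top) and rRNA as percent of mitochondrial counts (bottom), 1 point per library, with group mean and SD (n = 3). Blue marks WT, red marks KO, hollow untreated and filled mocetinostat. The rRNA share of the treated U2OS libraries lies between 12.8% and 14.4%, above all untreated U2OS libraries.

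Gene by gene, the recovered AID-DIvA WT cells showed modest rises in mRNAs of complexes I, III and IV. Of the 37 mitochondrial genes, 7 rose and 1 fell by edgeR's quasi-likelihood test (Benjamini-Hochberg adjusted p under 0.05), where 23.9% of all 20289 genes tested rose and 23% fell. The median log2 difference was 0.24 over the mitochondrial genes and −0.00 over all genes. MT-CYB, the mitochondrial subunit of complex III, was at 4442, 3974 and 3639 CPM untreated and at 5324, 5081 and 5154 CPM recovered, without overlap. Its log2 difference was 0.38 ± 0.06 (SE, adjusted p = 0.00019). Among complex I subunits MT-ND4L rose by 0.25 ± 0.05, MT-ND4 by 0.28 ± 0.06 and MT-ND3 by 0.31 ± 0.08. MT-ND4, which forms part of the proton-pumping membrane arm, was at 9364, 8572 and 7618 CPM untreated and at 10663, 10246 and 9960 CPM recovered. In complex IV MT-CO2, which receives electrons from cytochrome c, rose by 0.20 ± 0.06 and MT-CO3 by 0.19 ± 0.07 (adjusted p = 0.020 and 0.044). All 13 mRNAs had positive differences, and MT-ND1, MT-ND2, MT-ND5, MT-ND6, MT-CO1, MT-ATP6 and MT-ATP8 (0.14 to 0.32) did not pass. Without replicate 1 of the recovered cells, whose levels were the highest of the 3, MT-ND3, MT-ND4, MT-CO2, MT-CO3 and MT-CYB lost their calls with differences of 0.22, 0.25, 0.16, 0.13 and 0.36. Without replicate 1 of the untreated cells 20 mitochondrial genes were called in place of 8.

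In recovered AID-DIvA KO cells 8 of 37 genes rose and 0 fell by edgeR's test (0 at an unadjusted p under 0.05 and 0 with DESeq2), against 20.2% and 19.9% of all 20362 genes. The median was 0.18, and −0.02 over all genes. Both rRNAs were called higher here. In recovered AID-DIvA WT neither was called by edgeR (2 at an unadjusted p under 0.05 and 0 with DESeq2). Their log2 differences there were nevertheless 0.34 and 0.38, and 1 of the 2 was called on sense counts. The genotype by treatment interaction in AID-DIvA called neither rRNA. MT-RNR1, the small-subunit rRNA, was at 664, 535 and 507 CPM untreated and at 1226, 887 and 844 CPM recovered. Replicate 1 was the highest in each group, and the groups did not overlap. The log2 difference was 0.79 ± 0.14 (adjusted p = 0.0019). MT-RNR2 went from 8116, 8487 and 7331 CPM to 10302, 11028 and 10936 CPM, by 0.43 ± 0.07 (adjusted p = 0.00075). The mRNAs called were MT-ND1 (0.36 ± 0.10), MT-ND2 (0.36 ± 0.12) and MT-CYB (0.39 ± 0.11). Untreated KO replicate 2 held 5247 CPM of MT-CYB against 4072 and 3822 in the others, and the recovered libraries held 5273 to 6122. The remaining 10 mRNAs had differences between 0.07 and 0.27. Without replicate 3 of the untreated cells the count fell to 3 genes, among which MT-RNR1 and MT-RNR2 kept their calls. All calls on mRNAs in this comparison were lost when untreated replicate 1 or 3 was left out.

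In U2OS, taken as collected directly after 24 h of mocetinostat, the rRNAs moved and the mRNAs mostly did not under TMM scaling. In WT 3 of 37 genes rose and 0 fell (edgeR; 1 lower at an unadjusted p under 0.05 and 0 with DESeq2), where 26% of all 21797 genes rose and 22.9% fell. MT-RNR1 was at 897, 740 and 753 CPM untreated and 1088, 995 and 1031 CPM treated (log2 difference 0.39 ± 0.09, adjusted p = 0.011). MT-RNR2 was at 5646, 4972 and 5132 CPM and then 7009, 6195 and 6582 CPM (0.33 ± 0.08, adjusted p = 0.013). Both calls were lost without treated replicate 1, at 0.35 and 0.29. None of the 13 mRNAs was called by edgeR (0 at an unadjusted p under 0.05, and 0 with DESeq2), with differences from −0.32 (MT-ND3) to 0.11. For MT-ND3 untreated replicate 1 was at 912 CPM, against 555 and 649 in the others and 523 to 589 in treated cells. Without that replicate 11 mitochondrial genes were called.

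In U2OS KO cells 9 of 37 genes rose and 1 fell, against 35.8% and 34% of all 21176 genes. MT-RNR1 went from 605, 570 and 570 CPM to 717, 796 and 788 CPM (0.40 ± 0.05, adjusted p = 6.6e-08). MT-RNR2 went from 6252, 6503 and 6504 CPM to 7619, 8634 and 8411 CPM (0.36 ± 0.05, adjusted p = 1.1e-06). Neither rRNA overlapped between groups, and both stayed called with any single library left out and under the other scalings, filters and strand settings tried. MT-CO1 fell by 0.13 ± 0.05 on the log2 scale (11256, 11025 and 11754 CPM untreated, 9402, 10626 and 10957 CPM treated, adjusted p = 0.031), and MT-ND3 rose by 0.15 ± 0.06 (adjusted p = 0.034). The MT-CO1 call was lost when libraries were scaled by their totals alone, at −0.05. Under that scaling 6 of the 15 mRNAs and rRNAs were called higher and 0 lower, against 3 and 1 in the main fit. The MT-ND3 call was lost in 5 of 15 alternatives, among them sense counts (0.11). The mitochondrial median was 0.05 and that of all genes 0.00.

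**Figure D2:**
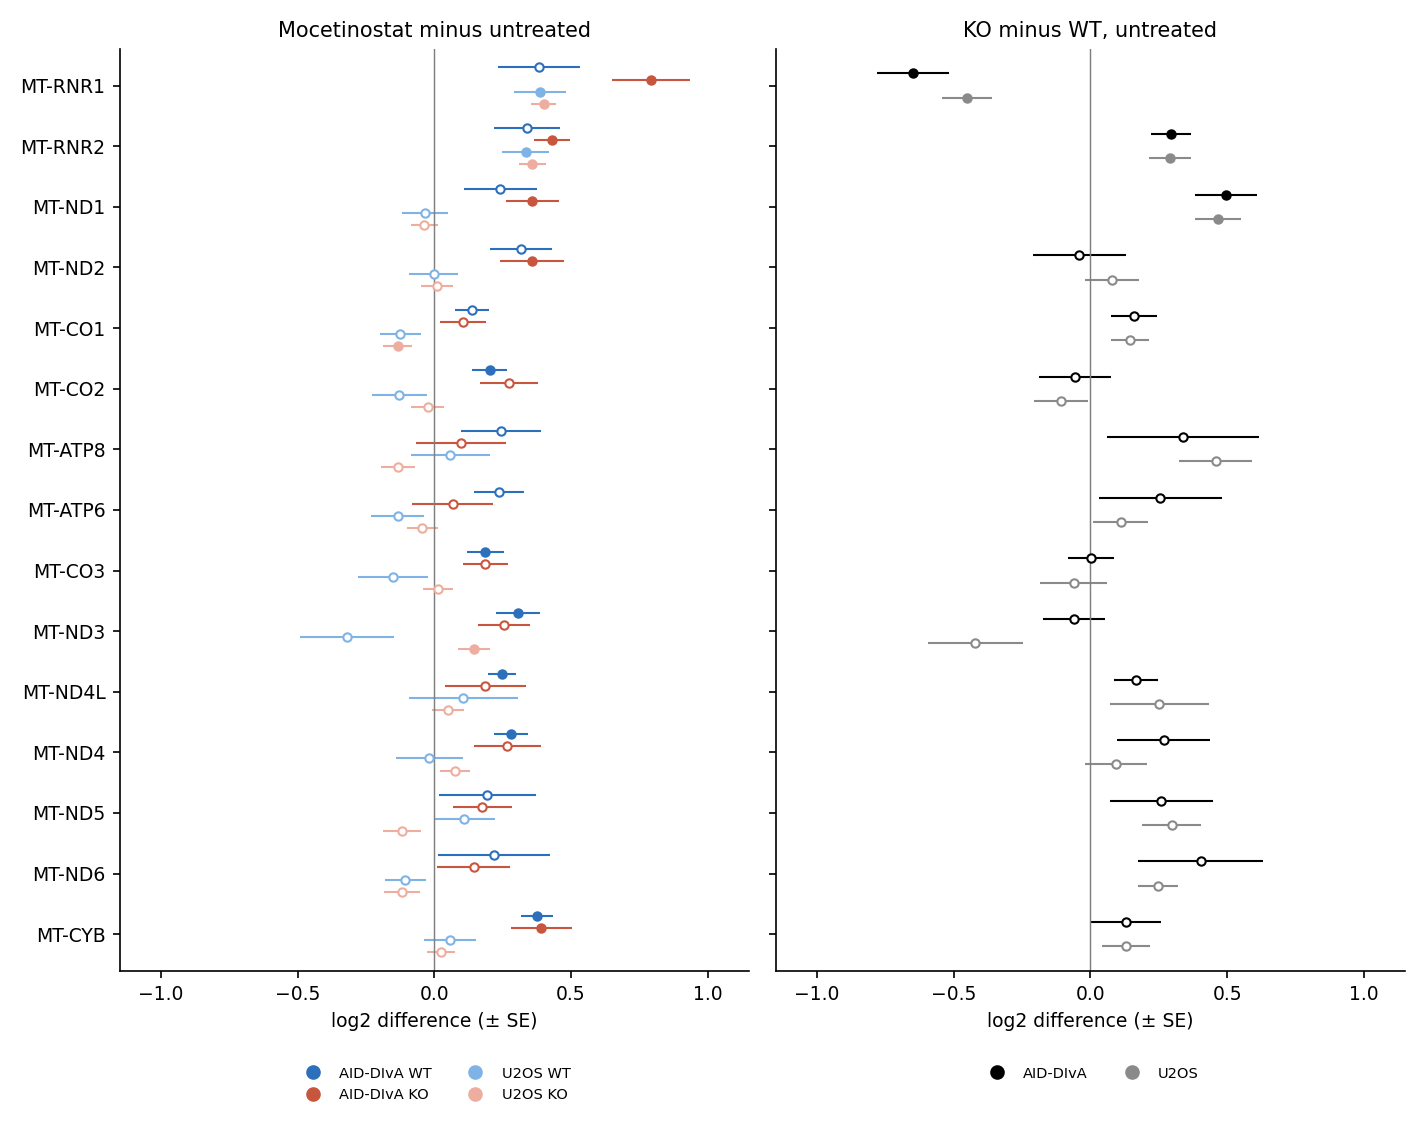
Log2 differences (± SE, 3 against 3 libraries) of the 13 mRNAs and 2 rRNAs for mocetinostat against untreated in the 4 cell populations (left) and for KO against WT in untreated cells (right); filled points have an adjusted p under 0.05 in edgeR's quasi-likelihood test. In the genotype panel MT-RNR1 lies below 0 and MT-RNR2 and MT-ND1 above it in both lines.

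The rRNAs differed in opposite directions between untreated KO and WT cells. In AID-DIvA KO against WT, 5 of 37 genes were higher and 7 lower, where 18.6% of all 20441 genes were higher and 18.1% lower. In U2OS the counts were 4 higher and 6 lower, against 6.56% and 8.63% of all 20621 genes. MT-RNR1 was lower in KO in both lines. In AID-DIvA it was at 1028, 850 and 807 CPM in WT and at 664, 535 and 507 CPM in KO, and in U2OS at 897, 740 and 753 CPM in WT and at 605, 570 and 570 CPM in KO, with no overlap. The log2 differences were −0.65 ± 0.13 (adjusted p = 0.0082) and −0.45 ± 0.09 (adjusted p = 0.015). MT-RNR2, which lies downstream of MT-RNR1 across MT-TV on the same precursor, was higher in KO. It was at 7366, 6252 and 5942 CPM in AID-DIvA WT and at 8116, 8487 and 7331 CPM in KO, an overlap of 1 library. In U2OS it was at 5646, 4972 and 5132 CPM in WT and at 6252, 6503 and 6504 CPM in KO. The differences were 0.30 ± 0.07 (adjusted p = 0.0068) and 0.29 ± 0.08 (adjusted p = 0.040). Several of these calls rested on single libraries. MT-RNR1 in U2OS was lost without any of the 3 KO libraries, and in AID-DIvA without KO replicate 2 or 3 (−0.60 and −0.58). MT-RNR2 was lost in AID-DIvA without KO replicate 3, and in U2OS without any KO library or WT replicate 2 or 3.

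The split was clearest as a ratio within each library. MT-RNR1 made up 11.96% to 12.24% of the rRNA counts in untreated AID-DIvA WT and 5.93% to 7.57% in KO. In U2OS it made up 12.8% to 13.7% in WT and 8.06% to 8.82% in KO. No WT library overlapped a KO library at either treatment in either set. Averaged over treatments, the KO minus WT difference was −4.68 percentage points in AID-DIvA and −4.96 points in U2OS. The exact permutation test gave an adjusted p of 0.010 for each, over 12 comparisons of shares that were added after the data were seen. Recovered AID-DIvA KO replicate 1, at 10.6%, lay apart from replicates 2 and 3 (7.44% and 7.16%). Mocetinostat made no difference past the test (1.03 points in AID-DIvA and 0.34 in U2OS, adjusted p = 0.102 and 0.131).

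With counts from either strand edgeR called MT-ND1 alone of the mRNAs between genotypes, in both lines, whereas DESeq2 called 1 mRNA in AID-DIvA and 3 in U2OS. MT-ND1, a core subunit of complex I, begins shortly after MT-RNR2 and MT-TL1. It was at 3145, 2603 and 2419 CPM in untreated AID-DIvA WT and at 3661, 4365 and 3459 CPM in KO. In U2OS it was at 2307, 2021 and 2183 CPM in WT and at 2815, 2968 and 3206 CPM in KO. KO libraries were above WT libraries in both lines. The log2 differences were 0.50 ± 0.11 and 0.47 ± 0.08 (adjusted p = 0.010 for both). The call was lost in AID-DIvA without KO replicate 3 and in U2OS without KO replicate 2 or 3. MT-TL1, the leucine tRNA between MT-RNR2 and MT-ND1, was also higher, at 28.1, 19.2 and 18.1 CPM in AID-DIvA WT against 40.6, 39.3 and 33.8 CPM in KO (0.81 ± 0.18, adjusted p = 0.014). In U2OS it was at 16.1, 15.4 and 19.1 CPM against 27.6, 26.8 and 29.4 CPM (0.73 ± 0.10, adjusted p = 0.0031). The other 12 mRNAs differed by −0.06 to 0.40 in AID-DIvA and by −0.42 to 0.46 in U2OS.

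The 2 lines share no library, and 9 of 37 genes were called in both, all in the same direction. Of the 19998 genes tested in both lines 2531 (12.7%) were called in both in the same direction, and 73.4% had the same sign. The 9 mitochondrial genes were 75.0% of the 12 called in AID-DIvA and 90.0% of the 10 called in U2OS. Of the 37 mitochondrial genes 29 had the same sign. The 9 were MT-RNR2, MT-ND1 and MT-TL1 (higher) and MT-RNR1, MT-TG, MT-TR, MT-TS2, MT-TL2 and MT-TP (lower), named after their values were seen.

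Transfer RNA genes gave few counts when both strands were counted, from 11 to 5466 per gene and library. A fragment that overlaps neighbouring genes of opposite strands is left out there but kept on each strand alone, and antisense counts reached 25210 at MT-TS1 in 1 library. For many of them most counts lay on the strand opposite to the gene. MT-TP, the proline tRNA on the minus strand, was at 71.6, 68.8 and 68.6 CPM in untreated AID-DIvA WT and at 43.3, 38.6 and 35.6 CPM in KO. This was a log2 difference of −0.83 ± 0.06 (adjusted p = 3.0e-08). In U2OS it was at 79.0, 54.3 and 61.8 CPM in WT and at 38.8, 35.5 and 34.4 CPM in KO (−0.84 ± 0.14, adjusted p = 0.0064). Between 82% and 94% of its counts were antisense, that is, RNA of the plus strand. MT-TG (−0.77 and −1.50), MT-TS2 (−0.71 and −0.98), MT-TL2 (−0.80 and −0.64) and MT-TR (−0.91 and −1.94) were lower in KO in AID-DIvA and U2OS. They are plus-strand genes whose counts were 91% to 100% antisense. Their calls therefore describe minus-strand RNA, not the tRNA.

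With treatment, MT-TP rose in recovered AID-DIvA WT (0.37 ± 0.06) and KO (0.37 ± 0.12) and in U2OS KO (0.31 ± 0.06), while MT-TG fell by 0.66 ± 0.17 in AID-DIvA WT. MT-TV rose in recovered AID-DIvA KO (0.84 ± 0.27), as did MT-TC (0.41 ± 0.14). In U2OS WT the only tRNA gene called was MT-TA (0.69 ± 0.23), at 0.550, 0.656 and 0.588 CPM untreated and 0.781, 1.18 and 0.957 CPM treated. In U2OS KO MT-TC (0.34 ± 0.06), MT-TY (0.43 ± 0.08) and MT-TR (1.16 ± 0.33) rose. MT-TR was at 0.503, 0.593 and 0.683 CPM untreated and at 2.20, 1.03 and 0.785 CPM treated, and treated replicate 1 lay above the others. MT-TC and MT-TY are minus-strand genes, and their counts were mostly antisense, that is, RNA of the plus strand. In treated U2OS KO MT-TC had 103 to 133 sense and 2585 to 3031 antisense counts. MT-TY had 37 to 41 and 4624 to 6264. On sense counts alone the MT-TC call was lost in U2OS KO (0.15) and in recovered AID-DIvA KO (0.28), and the MT-TY call was kept. The MT-TP difference in U2OS KO turned to −0.52 on sense counts. Under 15 alternatives the call was lost in 7 for MT-TA in U2OS WT and for MT-TC in recovered AID-DIvA KO, and in 6 for MT-TV and MT-TP in the latter.

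Antisense counts, which over plus-strand genes report the other strand's RNA, made up 3.005% to 8.44% of mitochondrial counts. They were concentrated at a few genes. In the 12 WT libraries they were 45.0% to 61.0% of the counts of MT-ND5, 11.6% to 27.9% of MT-ND3, 4.08% to 12.1% of MT-ND1 and 0.178% to 1.06% of MT-CO1. MT-ND5 abuts the minus-strand MT-ND6 at the junction printed above. How much of the antisense RNA at MT-ND5 belongs to transcripts of MT-ND6 was not measured. Antisense counts at MT-RNR2 were 0.0136% to 0.0599% of its counts, and the median over nuclear genes with at least 10000 sense counts was 0.0437% to 0.0649%. Both values are upper limits on the share of counts placed on the wrong strand at those genes. A fragment that covers genes of opposite strands can be counted as sense for 1 and antisense for the other.

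The antisense share was lower in KO cells. It also holds plus-strand RNA over minus-strand genes. The antisense share was 3.91% to 4.56% in untreated AID-DIvA WT and 3.06% to 3.42% in KO. In U2OS it was 6.17% to 7.72% in WT and 5.01% to 5.35% in KO. Treated groups were separated in the same direction (3.82% to 4.46% against 3.005% to 3.29% in AID-DIvA, and 7.23% to 8.44% against 5.61% to 5.85% in U2OS). The averaged differences were −1.04 and −1.98 percentage points (exact permutation, adjusted p = 0.016 for each). Over plus-strand mRNA genes only, where antisense counts are minus-strand RNA, the share in untreated cells was 3.23% to 3.72% in AID-DIvA WT against 1.67% to 1.93% in KO, and 5.43% to 7.36% in U2OS WT against 4.14% to 4.63% in KO, with averaged differences of −1.57 and −2.39 points (adjusted p = 0.016 for each). The summed antisense share of nuclear genes was 5.44% ± 0.04 in untreated AID-DIvA WT and 5.55% ± 0.07 in KO, and 5.76% ± 0.25 and 5.72% ± 0.04 in U2OS. Mocetinostat raised the mitochondrial antisense share by 0.71 points in U2OS (adjusted p = 0.036), a call lost without any 1 of 8 of the 12 libraries (all but untreated replicate 2 and treated replicate 1 of each genotype), and the difference in AID-DIvA was −0.07 points (adjusted p = 0.64).

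MT-ND5 encodes a proton-pumping subunit at the end of the complex I membrane arm. Antisense counts made up 45.0%, 49.1% and 47.5% of its counts in untreated AID-DIvA WT and 20.7%, 21.5% and 25.1% in KO. In U2OS they were 57.6%, 52.2% and 47.4% in WT and 35.1%, 35.8% and 32.6% in KO. No KO library reached the lowest WT library. Averaged over treatments the differences were −23.5 points in AID-DIvA and −17.3 points in U2OS (exact permutation, adjusted p = 0.010 for each, among the 12 added comparisons). With mocetinostat the share differed by 3.99 points in AID-DIvA (adjusted p = 0.0225, lost without recovered WT replicate 3) and by 4.92 points in U2OS (adjusted p = 0.10).

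The 2 strands of MT-ND5 moved in opposite directions. Sense counts, the mRNA, were at 1823, 1279 and 1168 CPM in untreated AID-DIvA WT and at 2715, 2792 and 2034 CPM in KO (0.83 ± 0.23, adjusted p = 0.048). In U2OS they were at 983, 1421 and 1508 CPM and at 2101, 2116 and 2369 CPM (0.76 ± 0.17, adjusted p = 0.020). Antisense counts were at 1490, 1235 and 1058 CPM in AID-DIvA WT and at 707, 766 and 683 CPM in KO (−0.81 ± 0.15, adjusted p = 0.026). In U2OS they were at 1333, 1549 and 1358 CPM and at 1137, 1181 and 1148 CPM, a difference of −0.29 that did not pass. With both strands summed, MT-ND5 differed by 0.26 and 0.30 and was not called in either line.

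**Figure D3:**
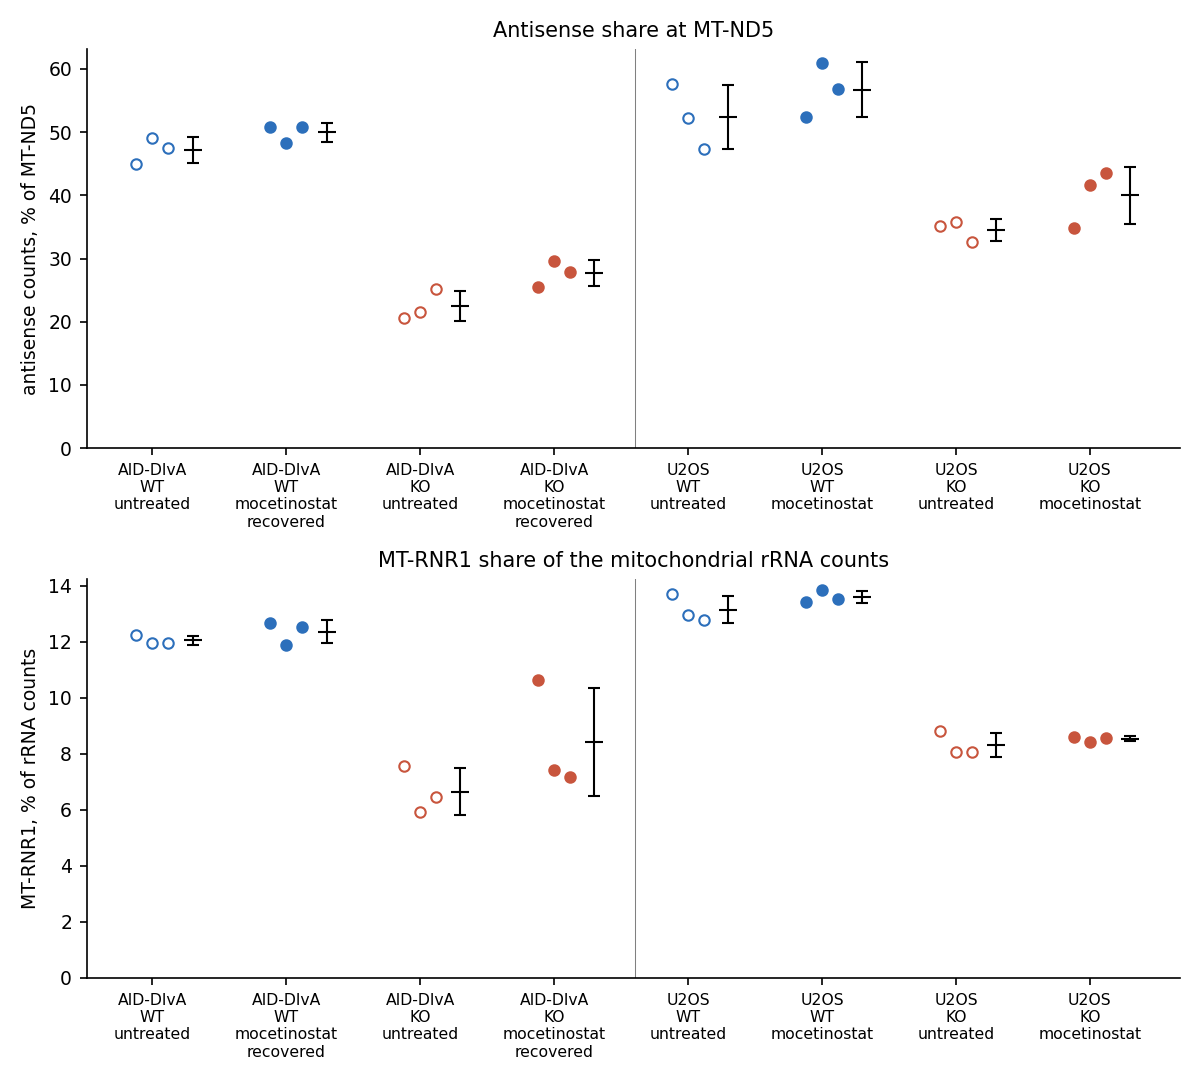
Antisense counts as percent of MT-ND5 counts (top) and MT-RNR1 as percent of rRNA counts (bottom), 1 point per library with group mean and SD (n = 3). In every pair of groups of the same line and treatment all KO points lie below all WT points.

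Across genes, antisense counts were lower in KO at 14 of the 33 mitochondrial genes tested in AID-DIvA, where 8.05% of 8414 genes were lower. In U2OS they were lower at 9 of 34, where 2.03% of 8534 genes were lower. The medians were −0.71 and −0.63, and 0.01 over all genes in both. MT-ND1 showed the widest gap among the mRNA genes called in both lines. Its antisense counts were at 145, 128 and 98.8 CPM in AID-DIvA WT and at 43.9, 40.1 and 33.7 CPM in KO (−1.65 ± 0.19, adjusted p = 0.0065). In U2OS they were at 168, 170 and 176 CPM and at 66.8, 80.0 and 68.3 CPM (−1.25 ± 0.11, adjusted p = 0.00039). MT-CO1 (−1.31 ± 0.26 and −0.86 ± 0.12) and MT-ND4L (−1.01 ± 0.13 and −0.95 ± 0.21) were lower in both lines as well. MT-ND3 (−0.79 ± 0.08) and MT-CO3 (−0.83) were called only in AID-DIvA, and MT-ND2 (−0.68) only in U2OS, and the difference between lines was not tested. Of the 33 mitochondrial genes tested on antisense counts in both lines 8 were called in both in the same direction, as were 3.23% of all 7978 genes so tested.

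**Figure D4:**
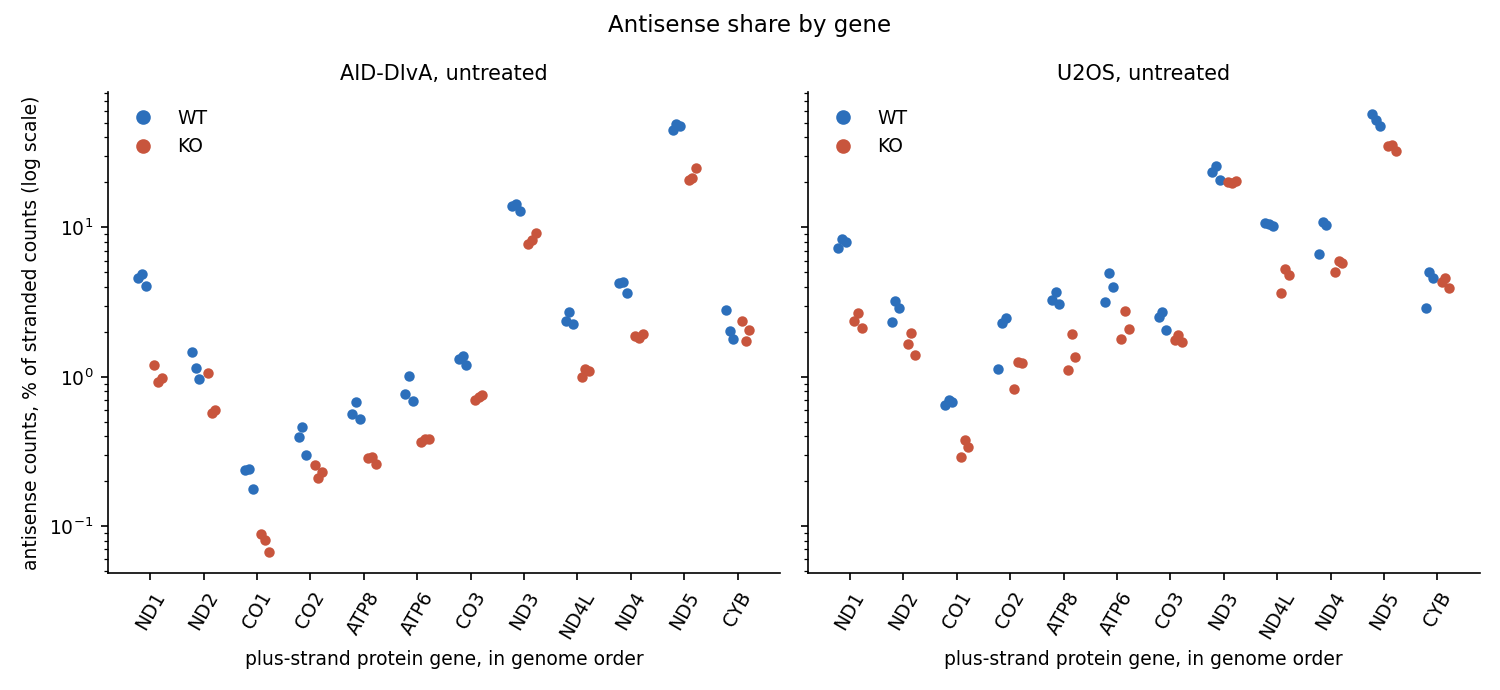
Antisense counts as percent of each gene's counts (log axis) for the 12 plus-strand mRNA genes in untreated cells of both lines, WT in blue and KO in red. MT-ND5 is the highest and MT-CO1 among the lowest, and for MT-ND1 the WT points lie above the KO points.

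In 3 of the 4 populations treatment raised antisense counts at MT-ND1 and MT-CO1. In recovered AID-DIvA WT their differences of 0.20 and 0.30 did not pass. With mocetinostat 12 of 34 mitochondrial genes had higher antisense counts in U2OS KO and 2 of 34 in U2OS WT, against 19.7% of 8574 and 11.8% of 8971 genes. After recovery the counts were 7 of 31 in AID-DIvA KO and 1 of 33 in WT, against 9.34% of 8192 and 12.9% of 8050 genes. Lower antisense counts were called at 2 of 34 genes in U2OS KO, where 2468 of 8574 genes were lower. In U2OS WT it was 1 of 34, against 1422 of 8971. In recovered AID-DIvA it was 0 of 31 in KO and 1 of 33 in WT, against 857 of 8192 and 1125 of 8050. Of the 12 higher in U2OS KO, 8 were tRNA genes. Over minus-strand genes antisense counts are plus-strand RNA, so these numbers of genes mix both strands. Antisense MT-ND1 in U2OS KO went from 66.8, 80.0 and 68.3 CPM to 138, 132 and 130 CPM (0.90 ± 0.06, adjusted p = 2.1e-16). In U2OS WT it went from 168, 170 and 176 CPM to 219, 241 and 244 CPM (0.46 ± 0.11, adjusted p = 0.0098). Treated KO cells stayed below untreated WT cells. Antisense MT-CO1 rose by 0.64 in U2OS KO, 0.38 in U2OS WT and 0.61 in recovered AID-DIvA KO (adjusted p = 0.0029, 0.024 and 0.0021). At the far end of the genome antisense MT-CYB fell by 0.39 ± 0.05 in U2OS KO (adjusted p = 7.3e-08). Sense MT-ND5 fell by 0.26 ± 0.05 in the same cells (adjusted p = 0.00012).

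MT-ND6, a membrane subunit of complex I, is the sole mRNA on the minus strand, and plus-strand RNA made up 41.5% to 77.6% of the counts over it. Its sense counts were at 436, 386 and 303 CPM in untreated AID-DIvA WT and at 221, 254 and 210 CPM in KO (−0.71 ± 0.14, adjusted p = 0.0077). In U2OS they were at 227, 334 and 289 CPM and at 270, 285 and 280 CPM, a difference of −0.02 that did not pass. As a share of sense mRNA counts MT-ND6 was lower in AID-DIvA KO (difference −0.25 percentage points, exact permutation, adjusted p = 0.016), and the U2OS difference of −0.15 did not pass (adjusted p = 0.080). After recovery its sense counts rose by 0.55 ± 0.08 in AID-DIvA KO (adjusted p = 0.00077). Over the 13 mRNA genes the minus-strand share was lower in KO, with differences of −1.80 points in AID-DIvA and −2.49 points in U2OS (exact permutation, adjusted p = 0.010 for each). With mocetinostat that share was higher by 1.27 points in U2OS (adjusted p = 0.0225), and the 0.23 points in AID-DIvA did not pass (adjusted p = 0.18).

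Whether the response differed between genotypes was tested as an interaction. No mitochondrial gene was called in either set by edgeR, where 1.21% of 21265 genes were called in AID-DIvA and 2.15% of 22647 in U2OS. At an unadjusted p under 0.05 there were 0 in AID-DIvA and 5 in U2OS (4 positive, 1 negative), and DESeq2 called 0 and 1. The response after recovery in AID-DIvA was also set against the response without recovery in U2OS, where line and recovery cannot be told apart. This difference was called at 1 of 37 genes in WT, where 42.2% of 22238 genes were called, and at 3 of 37 in KO, where 52.5% of 21947 were.

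Some fragments from these genes could be assigned to near-identical copies in the nuclear genome. Copies were found by gene symbol alone (beginning with MTND, MTCO, MTATP, MTCYB or MTRNR). Of 188 copies so named, 85 had counts, and together they held 0.941% to 1.27% of the number of mitochondrial counts. Copies listed under other names were not looked for, so this share is a lower limit, also for genes without a counted copy. MTATP6P1 on chromosome 1 (569076 to 569756) took 8.28% to 13.2% of its counts summed with MT-ATP6, so the values for MT-ATP6 are uncertain by that much. MTND2P28 on chromosome 1 (565020 to 566063) took 2.65% to 3.52% of the sum with MT-ND2.

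Nuclear genes that act on mitochondrial DNA and RNA were described by 4 lists, and the difference between sets was not tested for a list. Over all genes tested, 23.9% rose and 23% fell in recovered AID-DIvA WT and 20.2% and 19.9% in KO. In U2OS 26% rose and 22.9% fell in WT, and 35.8% and 34% in KO. After recovery in AID-DIvA WT 10 of 17 genes for mitochondrial DNA transcription and maintenance rose and 3 fell (median 0.13), and in KO 8 rose and 3 fell (median 0.14). In U2OS 3 rose and 4 fell in WT (−0.12), and 3 rose and 7 fell in KO (−0.00). POLRMT, the mitochondrial RNA polymerase, rose by 0.57 ± 0.04 and 0.60 ± 0.09 in recovered AID-DIvA WT and KO (adjusted p = 1.5e-07 and 0.0005). In U2OS it fell by 0.35 ± 0.11 and 0.45 ± 0.06 (adjusted p = 0.034 and 2.8e-07). TFAM, which packages mitochondrial DNA and acts at its promoters, went the other way, at −0.24 ± 0.06 in AID-DIvA WT and 0.30 ± 0.07 and 0.37 ± 0.05 in U2OS WT and KO, with −0.22 (not called) in AID-DIvA KO. TFB2M, the promoter-melting factor, rose in both AID-DIvA genotypes (0.33 and 0.27) and fell by 0.24 in U2OS KO. TEFM, the elongation factor, and MTERF passed in none of the treatment or genotype comparisons.

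Of 33 genes for processing and decay of mitochondrial RNA, 17 rose and 1 fell in AID-DIvA WT (all genes 23.9% and 23%), and 10 rose and 2 fell in KO (20.2% and 19.9%). In U2OS 2 rose and 16 fell in WT (26% and 22.9%), and 8 rose and 19 fell in KO (35.8% and 34%). The medians were 0.13, 0.10, −0.24 and −0.20. LRPPRC, which with SLIRP stabilises mitochondrial mRNAs, rose by 0.25 ± 0.06 in AID-DIvA WT and by 0.44 ± 0.07 and 0.45 ± 0.04 in U2OS WT and KO. SLIRP rose by 0.50 ± 0.05 and 0.59 ± 0.06 in AID-DIvA WT and KO and by 0.26 ± 0.04 in U2OS KO. SUPV3L1, the helicase of the RNA degradosome, rose by 0.22 in both AID-DIvA genotypes and fell by 0.42 and 0.41 in U2OS. PNPT1, its nuclease partner, passed in none. FASTKD2, a mitochondrial rRNA-binding protein, fell by 0.75 ± 0.07 and 0.94 ± 0.07 in U2OS. MTPAP, the mitochondrial poly(A) polymerase, fell by 0.55 ± 0.08 and 0.57 ± 0.05 there.

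The proteins encoded by the mitochondrial mRNAs assemble with nuclear-encoded subunits. Of 75 nuclear subunits of oxidative phosphorylation tested, 29 rose and 5 fell in recovered AID-DIvA WT (all genes 23.9% and 23%), and 27 rose and 0 fell in KO (20.2% and 19.9%). In U2OS WT 0 rose and 39 fell (26% and 22.9%), and in KO 5 rose and 56 fell (35.8% and 34%). The medians were 0.08, 0.14, −0.39 and −0.23. Untreated U2OS WT replicate 1, which stood apart, was high at COX8A (191 against 126 and 119 CPM in the others). It was also high at ATP5G1 (96.4 against 65.4 and 61.4 CPM) and ATP5G3 (222 against 165 and 168 CPM). Treated WT libraries held 201 to 206 CPM of ATP5G3. The list counts were not repeated without that replicate. NDUFS3 of complex I fell from 97.8 ± 13.8 to 47.0 ± 2.61 CPM in U2OS WT and from 90.1 ± 3.30 to 41.7 ± 0.779 CPM in KO (−1.05 ± 0.11 and −1.11 ± 0.05). In the same libraries the mitochondrial MT-ND1 differed by −0.03 and −0.04, values that turned positive with scaling by library totals alone, and was not called.

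The same lists were compared between genotypes in untreated cells, where 18.6% of all genes tested were higher and 18.1% lower in AID-DIvA KO, and 6.56% and 8.63% in U2OS KO. In AID-DIvA 1 of the 17 transcription and maintenance genes was higher in KO and 4 lower. Of the 33 processing genes 5 were higher and 9 lower, and of the 75 subunits 7 were higher and 19 lower. In U2OS the counts were 0 and 1, 2 and 2, and 2 and 5. Of the 9 regulators of mitochondrial biogenesis 0 were higher and 2 lower in AID-DIvA, and 0 and 1 in U2OS, with PPARGC1A lower in both. REXO2, the mitochondrial oligoribonuclease, was at 54.7, 57.1 and 54.9 CPM in AID-DIvA WT and at 155, 155 and 150.3 CPM in KO (1.47 ± 0.04, adjusted p = 1e-12). In U2OS it was at 59.2, 44.3 and 44.5 CPM in WT and at 136, 133 and 127 CPM in KO (1.42 ± 0.12, adjusted p = 0.00039). Its neighbours on chromosome 11 were mostly higher in KO too. Within 3 Mb these were 36 of 49 genes in AID-DIvA (median 1.05) and 26 of 47 in U2OS (median 0.90). NDUFB11 of complex I was lower (−0.98 ± 0.05 and −1.11 ± 0.15), as was TBRG4, a FASTK-family protein, (−0.61 ± 0.05 and −0.45 ± 0.10).

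Of 9 regulators of mitochondrial biogenesis 4 rose and 3 fell in recovered AID-DIvA WT (all genes 23.9% and 23%) and 5 rose and 1 fell in KO (20.2% and 19.9%). In U2OS 3 rose and 5 fell in WT (26% and 22.9%) and 4 rose and 5 fell in KO (35.8% and 34%). PPARGC1A, the coactivator of mitochondrial biogenesis, was low in all groups. It was at 0.583, 0.506 and 0.498 CPM in untreated U2OS KO and at 6.51, 6.22 and 7.16 CPM with mocetinostat (3.65 ± 0.14, adjusted p = 2.9e-16). In U2OS WT it was at 2.44, 4.33 and 4.15 CPM and then 6.14, 6.33 and 6.17 CPM (0.77 ± 0.20, adjusted p = 0.015). It rose by 1.94 ± 0.14 in recovered AID-DIvA KO and fell by 0.58 ± 0.17 in WT. MYC rose in all 4 populations, by 1.43 and 1.65 after recovery in AID-DIvA and by 0.43 and 0.44 in U2OS.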

How the data were processed

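RNA-seq was analysed for 24 U2OS libraries in 8 groups of 3, described in the labels as biological replicates. Per the study's methods, strand-specific paired-end libraries were made with an Illumina total RNA kit (removal of rRNA is not stated), aligned to hg19 with STAR and counted per gene with featureCounts (versions not given in the sources used here). The authors deposited raw counts per gene from either strand, from the sense strand and from the antisense strand. Deposited FPKM and TPM values were not used. Fragments overlapping several genes were left unassigned.

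Counts of all genes were fitted with edgeR 4.0.16 (R 4.3.3; filterByExpr, TMM, quasi-likelihood test, Benjamini-Hochberg adjustment, threshold 0.05), with only the groups compared in each fit. CPM used library totals times TMM factors of the 12 libraries of each set, so levels are not compared between sets. Shares were compared by two-sided exact permutation within strata. DESeq2 1.42.0, other scalings, filters, strands, a replicate block and omission of each library were alternatives. On simulated counts for recovered AID-DIvA WT (20244 genes), 82.8% of log2 changes of 1 and 67.7% of 0.5 were recovered. For the U2OS genotypes (20498 genes) these were 73.2% and 21.4%. The simulation left nearly all genes unchanged (20046 in the former), unlike the real data, and held no library that stands apart. These rates therefore need not hold for the fits reported.

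Members and lists were chosen with earlier results of these data known. Named were all mRNAs and rRNAs, up to 4 tRNAs per comparison by adjusted p, 10 preset nuclear genes and, per list, the 2 smallest adjusted p in each direction, of which a selection is given. Of 137 list genes, 25 were found under older symbols. Antisense fits and the minus-strand, MT-ND5 antisense and MT-RNR1 shares were added after the data were seen. Some genes of the lists are not reported here.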

Additional observations from a re-analysis of the deposited data

Results flagged for a closer look

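The response to mocetinostat differed between AID-DIvA cells after recovery and U2OS cells without recovery at 4 mitochondrial genes, by the test of the difference itself (edgeR's quasi-likelihood test, adjusted p under 0.05). Cell line and recovery cannot be told apart in this difference. In WT the log2 response of MT-ND3 was higher after recovery by 0.62 ± 0.21 (adjusted p = 0.026), with a rise of 0.31 in AID-DIvA and a difference of −0.32 in U2OS that did not pass. Untreated U2OS WT replicate 1, at 912 CPM against 555 and 649, stood apart from its group, and without it the difference was 0.39 and the call was lost. It was also lost without recovered AID-DIvA WT replicate 1, untreated AID-DIvA WT replicate 2 or 3, or treated U2OS WT replicate 3. In KO the response of MT-ND1 was higher by 0.39 ± 0.13 (adjusted p = 0.016) and that of MT-CYB by 0.36 ± 0.14 (adjusted p = 0.044). The MT-CYB call was lost without any of 7 of the 12 libraries, at 0.28 to 0.39, and with scaling by library totals alone, at 0.27. Also in KO, MT-TR had a difference of −1.74 ± 0.53 (adjusted p = 0.011) at levels between 0.291 and 2.20 CPM. Single libraries that stand apart were not looked for by a test, since each group held 3.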

How the results depend on the processing

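Counts of mitochondrial genes called moved with the processing in several comparisons, against 8 in recovered AID-DIvA WT, 8 in recovered AID-DIvA KO, 3 in U2OS WT, 10 in U2OS KO, 12 and 10 between untreated genotypes in AID-DIvA and U2OS, 0 and 0 in the interactions, and 1 in WT and 3 in KO for the difference in response between lines. With all groups in 1 fit the counts were 4 in recovered AID-DIvA WT, 6 in U2OS KO, 1 in the U2OS interaction and 4 in the WT response difference. With no filter on low counts they were 16 in recovered AID-DIvA KO, 3 and 1 in the AID-DIvA and U2OS interactions, and 10 and 6 in the WT and KO response differences. DESeq2 gave 1 in the U2OS interaction and 3 and 5 in the response differences, DESeq2 size factors gave 2 and sense counts 2 in the WT response difference, and scaling without the mitochondrial genes gave 5 in that of KO. Asking also for a log2 difference beyond 1 left 0 genes in recovered AID-DIvA WT, 0 in KO, 0 in U2OS WT, 1 in U2OS KO, 0 and 2 between the AID-DIvA and U2OS genotypes, and 0 and 1 in the response differences. The cause was not tested, except that the last setting is stricter by construction.

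Leaving out each library gave 6 to 20 genes in recovered AID-DIvA WT (20 without untreated replicate 1) and 3 to 11 in KO (3 without untreated replicate 3, 5 without recovered replicate 2). It gave 1 to 11 in U2OS WT (11 without untreated replicate 1, 1 without treated replicate 1 or 3) and 7 to 10 in U2OS KO. Between untreated genotypes it gave 11 to 22 in AID-DIvA (22 without WT replicate 1) and 5 to 19 in U2OS (19 without WT replicate 1, 5 or 6 without any KO library). The AID-DIvA interaction stayed at 0, and that of U2OS ran from 0 to 4 (4 without untreated WT replicate 1, 1 without treated KO replicate 3). The response differences ran from 0 to 8 in WT (8 without untreated AID-DIvA replicate 1) and from 2 to 10 in KO (10 without untreated AID-DIvA replicate 2).

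Replicate numbers did not pair the samples: none of 12 group pairs had all correlations of same-numbered deviations over 0.1 (range −0.30 to 0.25). With the replicate number as a block the counts were 22 in recovered AID-DIvA WT, 25 between AID-DIvA genotypes, 1 in the AID-DIvA interaction, and 8 and 8 in the response differences. In the block the permutation test of a share can reach no p below 0.03125, so the share differences with treatment of 1.27 (mitochondrial), 1.21 and 2.93 (rRNA in AID-DIvA and U2OS), 0.71 (antisense in U2OS), 0.0705 (MT-ND6 in AID-DIvA) and 3.99 points (MT-ND5 antisense in AID-DIvA), and with genotype of 0.84 (rRNA in U2OS), −1.04 and −1.98 (antisense) and −0.25 points (MT-ND6 in AID-DIvA), did not pass there. Nor did the genotype differences of −1.80 and −2.49 (minus-strand share), −23.5 and −17.3 (MT-ND5 antisense) and −4.68 and −4.96 points (MT-RNR1 share), at an adjusted p of 0.0536, or the treatment difference of 1.27 in the U2OS minus-strand share.

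Over mRNA genes alone the rise of the mitochondrial share in AID-DIvA was 1.01 points and did not pass. On sense counts its genotype difference in U2OS was 0.551 and passed, and the rRNA share difference was 0.613 and did not. Over plus-strand mRNA genes the antisense difference with treatment in AID-DIvA turned to 0.166. Counted from either strand, the MT-ND6 share changed sign in all comparisons (−0.0239 and 0.151 for treatment and genotype in AID-DIvA, −0.0466 and 0.0973 in U2OS). The differences in mitochondrial share ran, with each library left out, from 1.04 to 1.59 (treatment, AID-DIvA), 0.530 to 1.09 (genotype, AID-DIvA) and 0.383 to 0.587 points (genotype, U2OS). Those of the rRNA share ran from 0.920 to 1.44 (treatment, AID-DIvA), 0.762 to 1.28 and 0.718 to 0.984 (genotype, AID-DIvA and U2OS). Those of the antisense share with treatment ran from −0.149 to 0.0193 in AID-DIvA, with 0.0193 without recovered WT replicate 2 and 0.0141 without untreated WT replicate 1, and from 0.508 to 0.896 in U2OS. Those of MT-ND6 ran from 0.0490 to 0.0861 and 0.0973 to 0.168 (treatment) and −0.186 to −0.115 (genotype, U2OS), of the minus-strand share from 0.137 to 0.349 (treatment, AID-DIvA), of MT-ND5 antisense from 3.43 to 4.66 and 3.68 to 6.22 (treatment) and of the MT-RNR1 share from 0.478 to 1.35 and 0.245 to 0.476 (treatment). The genotype differences in minus-strand share, MT-ND5 antisense share and MT-RNR1 share kept direction and call in both lines with any library left out.

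Of 55 calls on named genes, 483 values under other settings kept the call in 441, lost it in 38 and reversed in 4, all on sense counts of tRNA genes: MT-TH (−0.0498) and MT-TP (−0.522) with mocetinostat in U2OS KO, and MT-TS1 (−0.676) and MT-TH (0.748) between AID-DIvA genotypes. With 1 library left out the call was kept in 269 of 354 values and lost in 85. The antisense fits were not repeated without single libraries. Depth limits mainly the tRNA genes, down to 11 counts in a library.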

Other observations

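REXO2 lies on chromosome 11 of GRCh37, from 114310108 to 114321001, and SDHD, a subunit of complex II that was also higher in untreated KO cells (0.67 ± 0.06 in AID-DIvA and 0.60 ± 0.15 in U2OS), lies on the same chromosome from 111957497 to 111990353. Of the 49 other genes tested within 3 Mb of REXO2, 36 were higher and 4 lower in AID-DIvA KO than in WT by edgeR's test, with a median log2 difference of 1.05. In U2OS 26 of 47 were higher and 1 lower, with a median of 0.90. The median over the remaining genes of chromosome 11 was 0.07 in AID-DIvA and 0.03 in U2OS. This window was chosen after the values of REXO2 and SDHD were seen, and the number of copies of the region in each line was not measured.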
